A study of Mus musculus with 12 samples.

Results

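The core circadian clock loop was described here as 10 genes, taken by symbol from the deposited count table of 27304 genes. They are the activators Arntl, Clock and Npas2, the repressors Per1, Per2, Per3, Cry1 and Cry2, and the REV-ERB receptors Nr1d1 and Nr1d2. All 10 were found once each, and all 10 were among the 13641 genes that passed the filter on low counts. Each also reached the filter level in at least 3 libraries outside the group where it was highest. Total RNA of 12 mouse livers was sequenced, 1 liver per library, in 4 groups of 3. Per the labels, all 12 mice were Apoe-/- and had 12 weeks on the diet named HFD. The 6 controls carried no other labelled allele, and the 6 mice labelled Apoe-/-AhR-/-, here called Ahr-null, also lacked the aryl hydrocarbon receptor, with 3 males and 3 females of each genotype. The sources used here do not give the kinds of Apoe and Ahr allele, the age at the start of the diet, or the hour at which each liver was taken. A difference between groups in that hour therefore cannot be told apart from genotype or sex in any comparison or ratio of clock genes given here. No label ties a sample to a mouse, so each liver was taken as a separate mouse. The p-values then reflect only how far these 12 samples spread.

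In this loop ARNTL, also called BMAL1, pairs with CLOCK or its paralog NPAS2 and binds E-boxes in the promoters of the Per, Cry and Nr1d genes. The PER and CRY proteins then block that pair, and the REV-ERB proteins repress Arntl, Npas2 and other genes through elements that they share with the ROR receptors. Another arm works through D-boxes, which are bound by DBP, TEF and HLF and by the repressor NFIL3. As a result the transcripts of Arntl and Npas2 peak in mouse liver at the opposite time of day from those of the Nr1d genes and of Per3, with Cry1 late among the repressors. The liver clock is known to follow feeding times.

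The library totals ran from 9794253 to 18924880 counts. Ahr itself had 12.4 to 25.0 CPM in controls and 13.7 to 24.5 CPM in Ahr-null livers, and counts over a whole gene do not test a deletion of part of it. CPM are counts scaled to library size with TMM factors. Cyp1a2, a main target of the receptor, had 452 to 1170 CPM in controls against 47.0 to 217 CPM in Ahr-null livers. All 10 hepatocyte markers were detected in every library, with Alb at 5000 to 61300 CPM of the unscaled total. Ahr-null female replicate 1 stood apart: across genes its log2 CPM correlated at 0.805 and 0.811 with its group, while all remaining pairs of replicates reached 0.938 to 0.979. The 18 markers of neurons and glia, 10 of them detected in all 12 libraries, summed to 373 CPM there. In control male replicate 1 they summed to 152 CPM, and in the other libraries to between 19.8 and 34.9 CPM.

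Promoter sequences were at hand for 9 of the 10 members, with 13 start sites, from RefSeq on GRCm38.p6. The 250 bases before each start were searched on both strands for CACGTG (E-box), for TTATGTAA or TTACGTAA (D-box) and for AGGTCA (the core of the ROR and REV-ERB element), and the matches found did not overlap. Of 32851 promoters of this length 6.02% held the E-box, 0.931% the D-box and 14.0% AGGTCA. Counted per gene with a match at any start, the shares of 27025 genes were 6.86%, 1.1% and 15.8%. Among the members, Per3 held 2 D-box matches, Cry1 an E-box, Per1 an E-box and an AGGTCA core, and Clock and Nr1d2 an AGGTCA core each. The core of Clock lies in a Clock intron before an internal start, and the other starts of Clock and Per1 held no match. For Arntl, Npas2, Nr1d1 and Cry2 these letters are not in the window. The stretches of Per3 and Cry1, the Per and Cry genes with the largest difference in males, are shown because they hold different elements of the loop. That of Per1 was added, after its values were seen, for its contrast with Per3. All are written 5′ to 3′ on the strand of the gene, with the matches in capitals.
Per3, chr4:151044796-151044890, minus strand: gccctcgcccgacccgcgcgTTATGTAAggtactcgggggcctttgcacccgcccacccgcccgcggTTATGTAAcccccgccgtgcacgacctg
Cry1, chr10:85185089-85185134, minus strand: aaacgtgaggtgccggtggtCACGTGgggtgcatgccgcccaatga
Per1, chr11:69098763-69098837, plus strand: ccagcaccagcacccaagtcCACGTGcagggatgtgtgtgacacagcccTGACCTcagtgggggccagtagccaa
The D-box matches of Per3 begin 205 and 158 bases before its start, in a region that GENCODE also covers with an intron of Camta1. The E-box of Cry1 begins 60 bases before its start and lies in no GENCODE gene. The stretch of Per1 lies in an intron of a longer Per1 transcript, before an internal start, with the E-box 166 and the AGGTCA core, read on the other strand as TGACCT, 137 bases ahead of it. A match is a description of the letters and not a measured binding site.

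In males, Arntl, Npas2 and Cry1 were higher in the Ahr-null livers than in every control, and Per3, Nr1d1, Nr1d2, Per2 and Cry2 were lower than in every control. The level of Arntl was 3.11-fold higher and that of Per3 was 8.85-fold lower. The groups did not overlap for 8 of the 10 members, where 13.9% of all tested genes did not overlap. For 3 members all Ahr-null males were higher, as for 6.55% of all genes, and for 5 all were lower, as for 7.34%. No member passed the test over all genes in males. The edgeR quasi-likelihood test called 0 of the 10 there, and 0.0367% of all genes. At an unadjusted p under 0.05 it gave 8 of the 10 members, against 5.81% of all genes. With DESeq2 4 members passed in males, Arntl as higher and Nr1d1, Nr1d2 and Per3 as lower, where DESeq2 called 0.613% of all genes. With limma-voom 0 passed (0.022% of all genes), and with limma on the authors' variance-stabilised values 1 passed, Per3 (0.066% of all genes). Leaving out Ahr-null female replicate 1 gave 4 members with edgeR and 0.411% of all genes. That library is outside the male contrast and enters through the filter, the scaling and the shared estimate of spread. Leaving out both libraries with neural transcripts also gave 4 members, and 0.196% of all genes, so calls rose among genes at large too. Over all genes the 5 calls in males were 2 higher and 3 lower, and with library size alone 7 and 5. In females the groups overlapped for all 10 members, where 19.1% of all genes did not overlap. There edgeR called 0 of the 10 and 0.161% of all genes, with 1 member, Cry1, at an unadjusted p under 0.05 against 14.4% of all genes. DESeq2 and limma-voom also called 0 members in females, and 3.11% and 0.242% of all genes. The 22 genes called there were 4 higher and 18 lower, and with library size alone 96 and 21. The members' median log2 fold change was -0.36 in males, with 5 positive and 5 negative values, and -0.12 in females, against 0.00 and 0.06 for all tested genes.

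**Figure D1:**
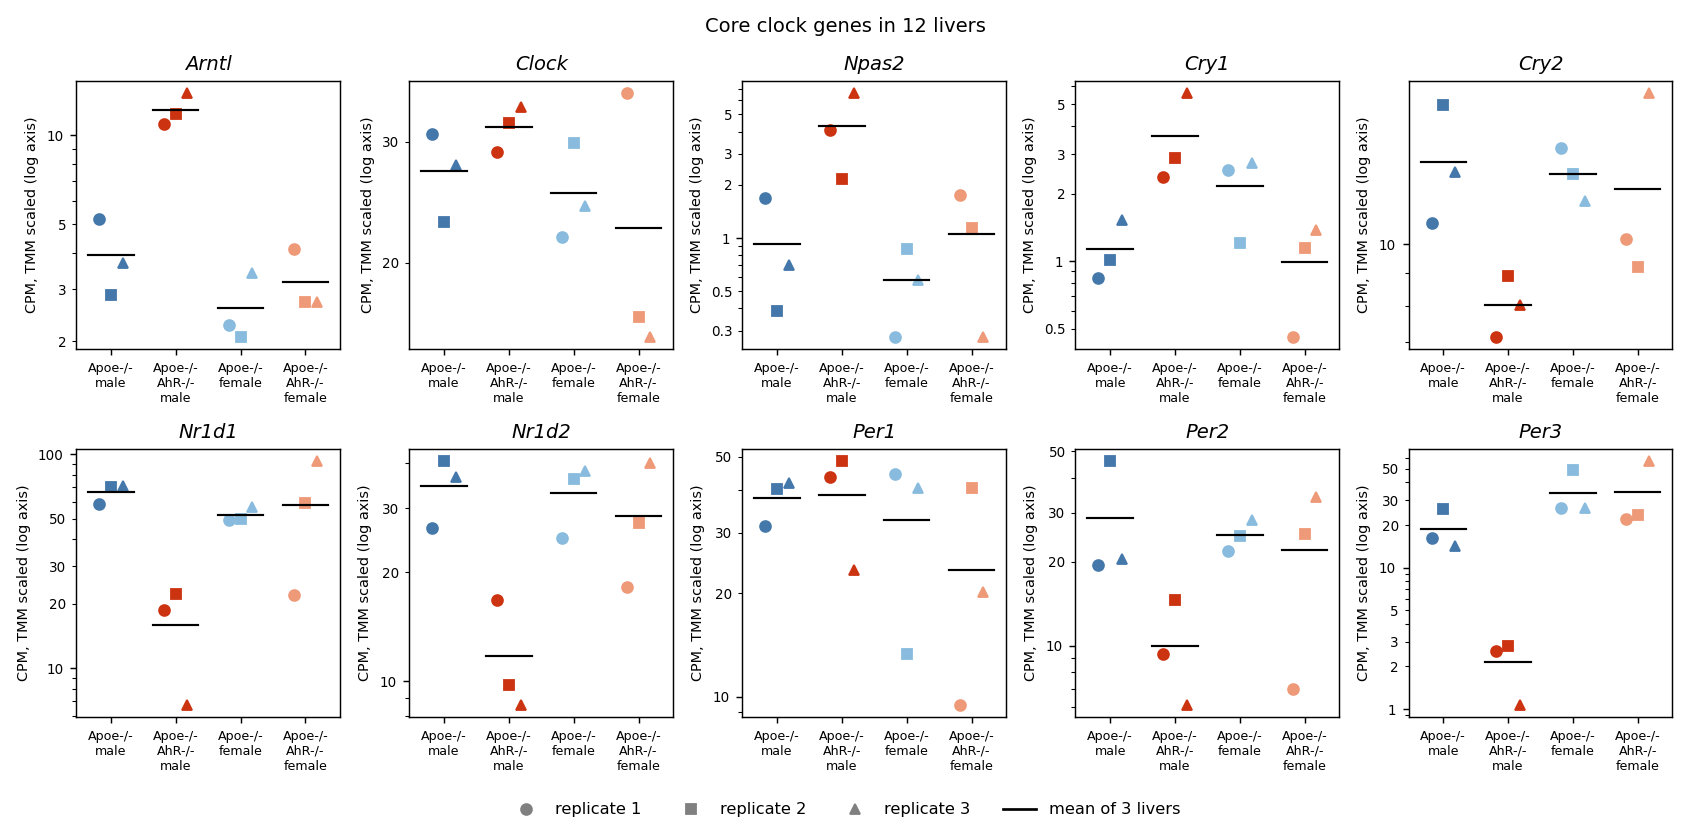
Level of each of the 10 clock genes in each liver, in TMM-scaled CPM on a log axis of its own range, for control (Apoe-/-) and Ahr-null (Apoe-/-AhR-/-) livers of each sex; marker shapes give the replicate and lines the mean of 3 livers. Arntl, Npas2 and Cry1 lie above all control males in Ahr-null males, Per3, Per2, Nr1d1, Nr1d2 and Cry2 lie below them, and Clock and Per1 overlap.

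Among the activators, Arntl (ENSMUSG00000055116, chromosome 7, 113207465 to 113314126, GRCm38) had 5.22, 2.87 and 3.70 CPM in control male replicates 1, 2 and 3 and 10.9, 11.8 and 13.9 CPM in the Ahr-null males. The lowest Ahr-null male was thus above the highest control male, and the 3 Ahr-null males lay close together. Arntl differed by 1.64 ± 0.31 (log2, SE) with an edgeR adjusted p of 0.125. In females Arntl had 2.28, 2.07 and 3.41 CPM in controls and 4.13, 2.71 and 2.71 CPM in Ahr-null livers, which overlap (0.28 ± 0.32, edgeR adjusted p = 0.716).

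Npas2 (ENSMUSG00000026077, chromosome 1, 39193731 to 39363236), which can take the place of CLOCK, had 1.68, 0.387 and 0.701 CPM in control males and 4.06, 2.17 and 6.59 CPM in Ahr-null males. Its log2 fold change in males was 2.23 ± 0.68 (edgeR adjusted p = 0.467). The counts behind these values were low, 20, 5 and 11 in control males against 103, 28 and 167, so that the control levels carry wide counting error. In females Npas2 ranged from 0.276 to 0.873 CPM in controls and from 0.276 to 1.75 CPM in Ahr-null livers. Clock (ENSMUSG00000029238, chromosome 5, 76209868 to 76304792), the partner of ARNTL, had 30.8, 22.9 and 27.8 CPM in control males and 29.0, 31.9 and 33.7 CPM in Ahr-null males, so the groups overlapped. Its log2 fold change was 0.21 ± 0.30 in males and -0.17 ± 0.31 in females (edgeR adjusted p = 1 and 0.837).

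The REV-ERB genes were lower in Ahr-null males and overlapped in females. Nr1d1 (ENSMUSG00000020889, chromosome 11, 98767932 to 98775333) had 58.7, 69.9 and 71.1 CPM in control males and 18.8, 22.2 and 6.75 CPM in Ahr-null males. Even the highest of the latter was well below the lowest control, and replicate 3 was the lowest of all 12 livers. Nr1d1 differed by -2.07 ± 0.49 on the log2 scale (edgeR adjusted p = 0.299). Its paralog Nr1d2 (ENSMUSG00000021775, chromosome 14, 18204054 to 18239127) had 26.5, 40.5 and 36.7 CPM against 16.8, 9.77 and 8.60 CPM in males (-1.56 ± 0.35 on the log2 scale, edgeR adjusted p = 0.260).

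In females Nr1d1 had 49.2, 50 and 56.4 CPM in controls and 22.0, 59.2 and 92.7 CPM in Ahr-null livers. The Ahr-null females thus lay on both sides of the controls, and the low liver was replicate 1, the library that stood apart. Nr1d2 did the same to a smaller degree, with 24.8, 36.1 and 38.0 CPM against 18.2, 27.4 and 40.0 CPM. The last exons of Nr1d1 overlap those of Thra, a thyroid hormone receptor gene on the other strand, over 263 bases or 8.55% of its merged exons, and the sources used here do not give the strand setting of the counting. Thra itself had 30.4 to 55.7 CPM in control males and 17.1 to 23.7 CPM in Ahr-null males (-1.03 ± 0.28, edgeR adjusted p = 0.388), and its part in the counts of Nr1d1 was not tested.

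The 3 Per genes differed from each other. Per3 (ENSMUSG00000028957, chromosome 4, 151003652 to 151044665), the least essential of the Per repressors in mouse, had 16.1, 26.0 and 14.1 CPM in control males and 2.56, 2.79 and 1.07 CPM in Ahr-null males. All 3 Ahr-null males were lower than any other liver of the study. The log2 fold change of -3.15 ± 0.49 missed the threshold in males (edgeR adjusted p = 0.0582). In females Per3 had 26.6, 48.6 and 26.5 CPM in controls against 21.9, 23.5 and 56.6 CPM in Ahr-null livers (0.01 ± 0.44 on the log2 scale, edgeR adjusted p = 0.995).

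Per2 (ENSMUSG00000055866, chromosome 1, 91415982 to 91459324), a repressor that the loop needs for a stable rhythm, had 19.5, 46.0 and 20.5 CPM in control males and 9.35, 14.6 and 6.12 CPM in Ahr-null males. The groups did not overlap, but control male replicate 2 was far above the others, and the log2 fold change was -1.52 ± 0.52 (edgeR adjusted p = 0.581). Without that library it was -1.01. Per1 (ENSMUSG00000020893, chromosome 11, 69095217 to 69109960), which also answers acute signals such as glucocorticoids, had 31.4, 40.2 and 42.1 CPM in control males and 43.8, 48.6 and 23.4 CPM in Ahr-null males. These values overlap, the Ahr-null males fall on both sides of the controls, and the log2 fold change was 0.02 ± 0.51 (edgeR adjusted p = 1). In females Per1 spread from 13.3 to 44.5 CPM in controls and from 9.46 to 40.7 CPM in Ahr-null livers.

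The 2 Cry genes, the strongest repressors of the activator pair, lay on opposite sides in males. Cry1 (ENSMUSG00000020038, chromosome 10, 85131700 to 85185064) had 0.842, 1.01 and 1.53 CPM in control males and 2.37, 2.87 and 5.60 CPM in Ahr-null males (1.67 ± 0.50, edgeR adjusted p = 0.462). Cry2 (ENSMUSG00000068742, chromosome 2, 92403646 to 92434043) had 10.8, 16.6 and 13 CPM against 7.14, 8.92 and 8.01 CPM (-0.75 ± 0.27, edgeR adjusted p = 0.677). Neither pair of groups overlapped. In females Cry1 had 2.55, 1.2 and 2.75 CPM in controls and 0.459, 1.14 and 1.38 CPM in Ahr-null livers. That is the opposite sign from the males, although the female groups overlapped (-1.10 ± 0.51, edgeR adjusted p = 0.346). The count of Cry1 was 10 to 142 in males and 5 to 37 in females, so single livers are imprecise. Cry2 had 11.7 to 14.2 CPM in control females and 9.20 to 17.3 CPM in Ahr-null females.

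**Figure D2:**
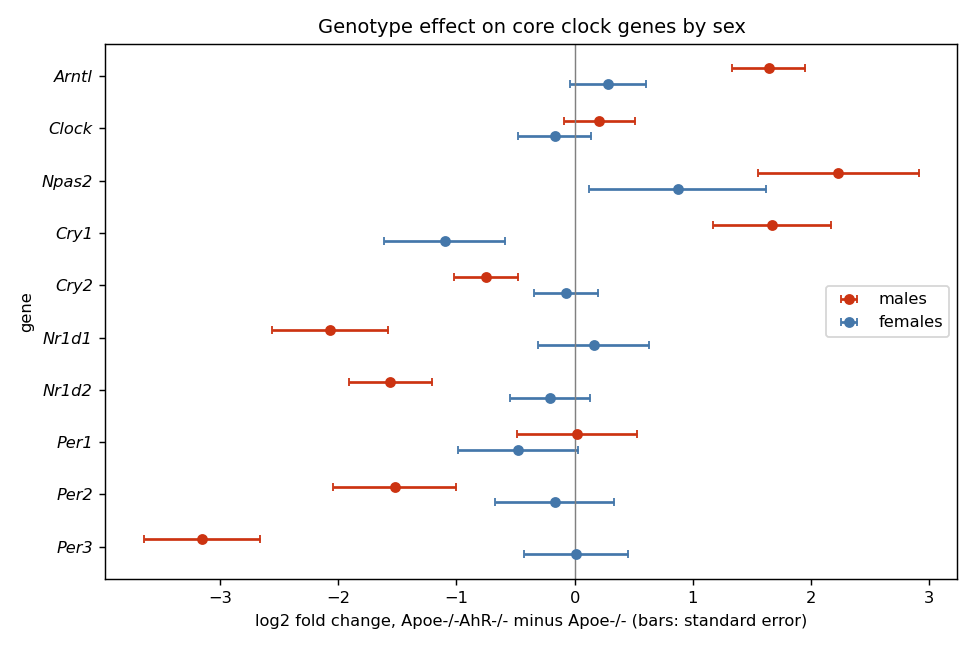
Log2 fold change of each clock gene, Ahr-null minus control, in males (red) and females (blue), with the standard error of the edgeR fit over 12 livers. Male values run from -3.15 for Per3 to 2.23 for Npas2, and female values from -1.10 for Cry1 to 0.87 for Npas2.

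Averaged over the sexes, Per3 fell by 1.57 ± 0.33 on the log2 scale (edgeR adjusted p = 0.0398), and it was the 1 member of 10 that passed, where 1.06% of all genes passed and 0.528% passed as lower. The 144 genes called in this average were 72 higher and 72 lower. With library size alone in place of TMM the median of all genes rose from 0.04 to 0.53, 986 genes were called higher and 67 lower, and Per3 still passed (-1.08 on the log2 scale). Its call ended without any single 1 of the 6 control livers, and without Ahr-null male replicate 1 or 3 or Ahr-null female replicate 2, with adjusted p from 0.0729 to 0.154. Arntl missed the threshold (0.96 ± 0.22, edgeR adjusted p = 0.0589). Whether males and females differed in the genotype effect was tested with the interaction. For Per3 the male effect was 3.15 ± 0.65 lower than the female effect on the log2 scale (unadjusted p = 0.000334, edgeR adjusted p = 0.760). For Cry1 the difference was 2.77 ± 0.71, for Nr1d1 -2.23 ± 0.67, for Arntl 1.35 ± 0.44 and for Nr1d2 -1.35 ± 0.49, with adjusted p of 0.836 to 0.886. The test called 0 of the 10 members and 0.00733% of all genes, with 5 members at an unadjusted p under 0.05 against 4.60% of all genes. With DESeq2 1 member passed, Per3 (adjusted p = 0.009), where 0.129% of all genes did. With limma-voom 0 members and 0.00733% of all genes passed, and with limma on the authors' values 0 members and 0.0293%. A difference between the sexes in the genotype effect was therefore not shown by edgeR for any member.

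The sexes were also compared within each genotype. In controls 0 of the 10 members passed between males and females with edgeR (0.352% of all genes), 0 had an unadjusted p under 0.05 (5.79% of all genes), and DESeq2 and limma-voom also called 0 (0.951% and 0.264% of all genes). Over all genes 27 were higher and 21 lower in control males, and with library size alone 47 and 17. The control groups did not overlap for 2 members, where 18.6% of all genes did not. Per3 was lower in control males by a narrow margin, at 14.1 to 26.0 against 26.5 to 48.6 CPM (-0.85 ± 0.44, adjusted p = 0.912). Nr1d1 was higher in all 3 control males, at 58.7 to 71.1 against 49.2 to 56.4 CPM (0.36 ± 0.47, adjusted p = 0.999). In Ahr-null livers 2 of the 10 members passed, where 0.279% of all genes did, and 8 had an unadjusted p under 0.05 against 8.68% of all genes. Arntl was 3.85-fold higher in Ahr-null males than in Ahr-null females (log2 1.95 ± 0.31, edgeR adjusted p = 0.0182), and Per3 was 16.1-fold lower (-4.0 ± 0.51, edgeR adjusted p = 0.00455). The groups did not overlap for 6 members, Arntl, Npas2 and Cry1 as higher in males and Nr1d2, Per3 and Cry2 as lower, where 11.2% of all genes did not overlap (4.83% higher and 6.38% lower). This contrast shares its Ahr-null males with the male genotype contrast, so the 2 are not separate observations. The call of Arntl ended without control female replicate 1, Ahr-null male replicate 2 or 3, or Ahr-null female replicate 2 or 3 (adjusted p from 0.0538 to 0.102). Per3 kept its call without each of the 12 libraries, but both calls ended when the 6 Ahr-null livers were fitted alone (adjusted p = 0.267 for Arntl and 0.190 for Per3). That fit called 0 of all genes, so the loss was not particular to these members.

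Ratios of members within a liver do not depend on how libraries are scaled, so they were used for the phase relation. Arntl and Nr1d1, which peak at opposite times, had an Arntl to Nr1d1 count ratio of 0.089, 0.041 and 0.052 in control males. Control females gave ratios of 0.0463, 0.0415 and 0.0605. In Ahr-null males it was 0.581, 0.531 and 2.05. These 3 livers had the highest ratios of the 12, and replicate 3 was the 1 liver with more Arntl than Nr1d1 counts. The mean ratio was 15-fold higher in Ahr-null than in control males on the log2 scale (difference 3.90). In Ahr-null females the ratio was 0.188, 0.0457 and 0.0292, so replicate 1, the library that stood apart, lay between the Ahr-null males and all other livers, while replicates 2 and 3 lay near the controls. The difference in females was 0.37.

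The Arntl to Per3 ratio split the livers further. It was 0.325, 0.11 and 0.261 in control males, 4.26, 4.22 and 13 in Ahr-null males, 0.0427 to 0.129 in control females and 0.0479 to 0.189 in Ahr-null females. Arntl counts exceeded Per3 counts in the 3 Ahr-null males and in none of the other 9 livers. The Npas2 to Per2 ratio was 0.0862, 0.00842 and 0.0343 in control males and 0.435, 0.149 and 1.08 in Ahr-null males. In females it reached 0.250 in Ahr-null replicate 1 and lay between 0.00809 and 0.0455 in the other 5 livers. The Clock to Nr1d2 ratio was 1.16, 0.566 and 0.757 in control males against 1.72, 3.26 and 3.91 in Ahr-null males. For Npas2 to Per2 and for Clock to Nr1d2 (1.94), Ahr-null female replicate 1 lay within the range of the Ahr-null males.

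The Cry1 to Cry2 ratio was 0.0781, 0.0607 and 0.118 in control males and 0.331, 0.322 and 0.700 in Ahr-null males. Control females had 0.0932 to 0.236, overlapping control males, and Ahr-null females 0.0450 to 0.124. The Per1 to Per3 ratio, added after the values were seen, was 1.95, 1.54 and 2.98 in control males and 17.1, 17.4 and 21.9 in Ahr-null males. The SD of this ratio on the log2 scale was 0.20 over the 3 Ahr-null males, against 0.48 in control males and 1.24 to 1.47 in the female groups. Both ratios of paralogs, Per1 to Per3 and Cry1 to Cry2, were higher in each Ahr-null male than in any other liver. No test was made on these ratios, since the members were chosen with results known.

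**Figure D3:**
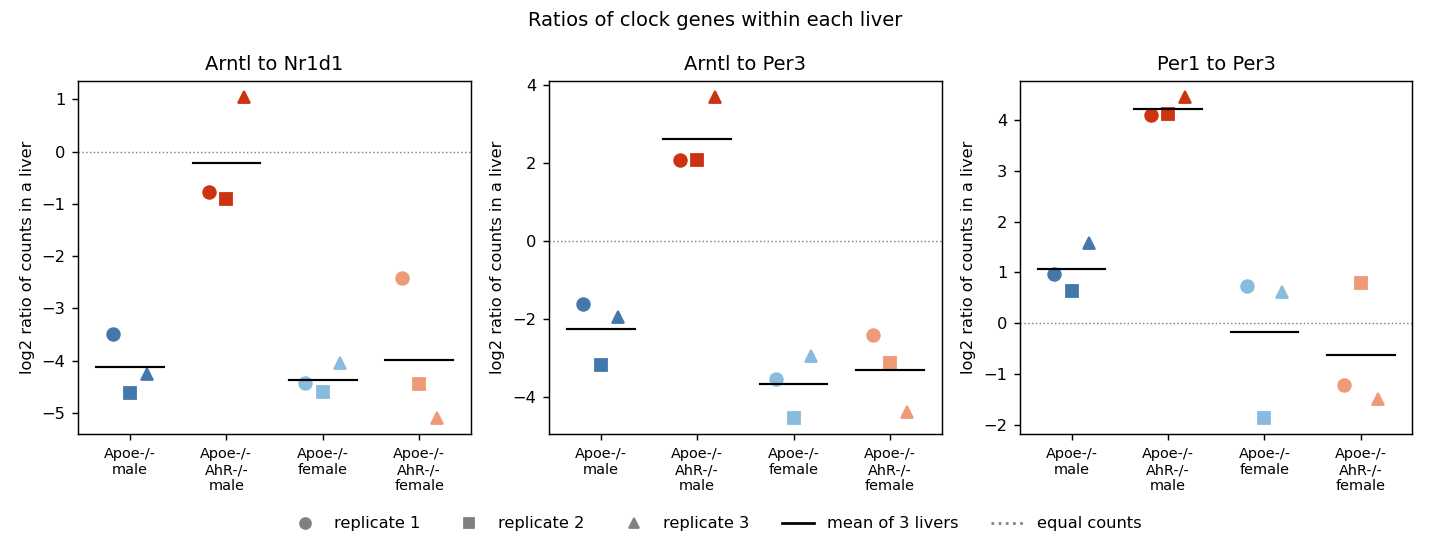
Log2 ratio of the counts of 2 clock genes in each liver, by genotype and sex; lines are means of 3 livers, marker shapes give the replicate and the dotted line marks equal counts. The panels show Arntl to Nr1d1, Arntl to Per3 and Per1 to Per3; in each the 3 Ahr-null males have the highest values, and Ahr-null female replicate 1, at -2.42, comes next for Arntl to Nr1d1.

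The male groups also differed in other ways within their spread. The mitochondrially encoded genes took 57.3%, 52.3% and 46.7% of the counts in control males and 38.9%, 52.7% and 30.4% in Ahr-null males. Sums over the marker lists overlapped between the male groups for hepatocytes (17200 to 31600 against 30900 to 69500 CPM), Kupffer cells (179 to 258 against 247 to 579), endothelium (104 to 148 against 147 to 192) and stellate cells (220 to 394 against 264 to 712). They also overlapped for cholangiocytes (30.4 to 69.6 against 42.3 to 126 CPM), lymphocytes (1.54 to 10.2 against 7.54 to 19.4) and red blood cells (62.2 to 183 against 147 to 979, 4 of 5 genes found). These sums are CPM of the unscaled total, so they also depend on the mitochondrial share, and TMM-scaled sums were not compared. In Ahr-null male replicate 2 the mitochondrial share and 7 of the 8 unscaled marker sums lay within or below the range of control males. The red blood cell sum of this liver, 277 CPM, lay above that range. That liver had 11.8 CPM of Arntl and 2.79 CPM of Per3. The part of cell makeup or mitochondrial share in the clock gene differences was not tested. Fewer cells of a type and less RNA per cell cannot be told apart in whole liver.

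Over the 6 female livers no member followed Arntl closely. Of 9 correlations of log2 CPM with Arntl, Per2 had the largest Pearson r at -0.63 (Spearman rho = -0.09, exact permutation p = 0.275 and 0.919), and Per3 had r = -0.55 and rho = -0.77 (exact permutation p = 0.225 and 0.103). All adjusted p over the 9 were 0.561 for r and at least 0.846 for rho. Without Ahr-null replicate 1 and control replicate 2, the livers farthest from the median of Arntl, r was 0.50 for Per2 and -0.05 for Per3. For Per2 the sign rests on Ahr-null replicate 1, since r was 0.52 without that liver alone and -0.68 without control replicate 2 alone. For Per3 r was -0.36 and -0.35 without each of them alone. The 2 male groups are separate clusters in Arntl, so no correlation was computed over males.

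Levels of different members were compared as unscaled CPM per kilobase of merged exons. In control males Nr1d1 was the most abundant at 20.6 ± 5.2 (SD, n = 3), above every other member in every liver. Per1 (6.46 ± 1.92), Nr1d2 (6.13 ± 1.95) and Per2 (4.62 ± 2.42) followed with overlapping ranges, and then Cry2 (2.03 ± 0.585), Clock (1.86 ± 0.347) and Per3 (1.83 ± 0.621), which overlapped too. The lowest 3 were Arntl (0.484 ± 0.111), Cry1 (0.329 ± 0.158) and Npas2 (0.172 ± 0.103). Control females had the same first 4 genes in the same order, with Nr1d1 at 13 ± 3.26 and Npas2 last at 0.0866 ± 0.0315.

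In Ahr-null males the order was different and flatter. Per1 (8.61 ± 2.53) and Nr1d1 (6.36 ± 2.81) led with overlapping ranges, Arntl (2.14 ± 0.668) stood next to Per2 (2.09 ± 0.429), and Per3 (0.278 ± 0.11) was the least abundant member, below Npas2 (1.26 ± 0.838) with no overlap. Each step of that order from Per1 down to Npas2 lay within the spread of its neighbours. In Ahr-null females Nr1d1 again had the highest mean at 20.2 ± 10.9, above Nr1d2 (5.70 ± 1.75), and Npas2 was last at 0.252 ± 0.179. The range of Nr1d1 there began at 7.96 and overlapped that of Per1, which reached 8.98. These levels carry no TMM scaling, so they describe the order within a group and not differences between groups.

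Of 16 other clock genes, 0 were called higher and 2 fell in Ahr-null males (Dbp and Bhlhe41), where 0.022% of all genes fell, and 14 did not pass. The median log2 fold change of the 16 was -0.76 in males and -0.47 in females, against 0.00 and 0.06 for all genes. In males the groups did not overlap for 11 of the 16, 2 higher and 9 lower, where 13.9% of all genes did not overlap, and in females for 2, where 19.1% did not. The 2 higher ones, named after their values were seen, were Nfil3, the D-box repressor, and Timeless. Nfil3 had 8.67 to 17.4 CPM in control males and 21.0 to 35.1 CPM in Ahr-null males (0.97 ± 0.46, edgeR adjusted p = 0.864), and the log2 difference of Timeless was 0.83 ± 0.53 (adjusted p = 0.973). Dbp, the D-box activator, had 44.5, 70.1 and 73.2 CPM in control males and 1.97, 1.86 and 0.987 CPM in Ahr-null males (-5.29 ± 0.73, edgeR adjusted p = 0.0235). In Ahr-null females it spread from 10.8 CPM in replicate 1 to 128 CPM in replicate 3, on both sides of the 49.0 to 65.5 CPM of control females. Bhlhe41, a repressor that binds E-boxes, had 7.83, 11 and 6.75 CPM in control males against 0.197, 0.310 and 0.395 CPM (-4.79 ± 0.53, adjusted p = 0.00814). The counts in those Ahr-null males were low, at 5, 4 and 10. Control females had 3.18, 3.38 and 1.33 CPM, below all control males, and Ahr-null females had 2.66, 0.902 and 2.10 CPM. The female groups of Bhlhe41 overlapped (-0.49 ± 0.45, edgeR adjusted p = 0.654). Tef, another D-box activator, had 125 to 165 CPM in control males and 15.6 to 46.8 CPM in Ahr-null males, a difference that did not pass (-1.98 ± 0.51, adjusted p = 0.357). Usp2, a ubiquitin protease under clock control, was lower in every Ahr-null liver than in every control. It had 63.2 to 112 CPM in control males, 10.7 to 23.3 CPM in Ahr-null males, 101 to 110 CPM in control females and 21.0 to 35.5 CPM in Ahr-null females. Averaged over the sexes Usp2 fell by 2.01 ± 0.25 (edgeR adjusted p = 0.00728), and its interaction was -0.39 ± 0.48 (adjusted p = 0.999). Dbp and Bhlhe41 fell in the average too (-2.53 ± 0.45 and -2.64 ± 0.34, edgeR adjusted p = 0.0206 and 0.00741). That made 3 of the 16, where 0.528% of all genes fell. The interactions of Dbp and Bhlhe41 did not pass (-5.51 ± 0.92 and -4.30 ± 0.68, edgeR adjusted p = 0.208 and 0.199).

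Of 16 rhythmic liver genes driven in part by the loop, 0 passed in males or in females with edgeR. At an unadjusted p under 0.05 there were 5 in males, against 5.81% of all genes, and 4 in females, against 14.4%. Lpin1 was the 1 of 16 that fell in the average (-1.19 ± 0.25, adjusted p = 0.0461), where 0.528% of all genes fell. Lpin1, a phosphatidate phosphatase, had 98.9 to 134 CPM in control males and 41.6 to 78.2 CPM in Ahr-null males, and 77.0 to 121 against 23.6 to 53.3 CPM in females. Wee1, a cell cycle kinase gene with E-boxes, had 1.01 to 2.87 CPM in control males and 0.155 to 0.908 CPM in Ahr-null males, against 1.10 to 1.53 and 1.5 to 4.09 CPM in females. The female groups overlapped. The counts of Wee1 were low, at 12, 37 and 33 in control males and 16, 2 and 23 in Ahr-null males. Its difference in males did not pass (-1.74 ± 0.58, edgeR adjusted p = 0.563). Noct, which encodes nocturnin, was higher in the Ahr-null males (286 to 670 against 34.0 to 244 CPM), and Ppara, a fatty acid receptor, was lower (17.0 to 32.5 against 36.8 to 46.3 CPM). Neither passed, at adjusted p of 0.608 and 0.659.

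**Figure D4:**
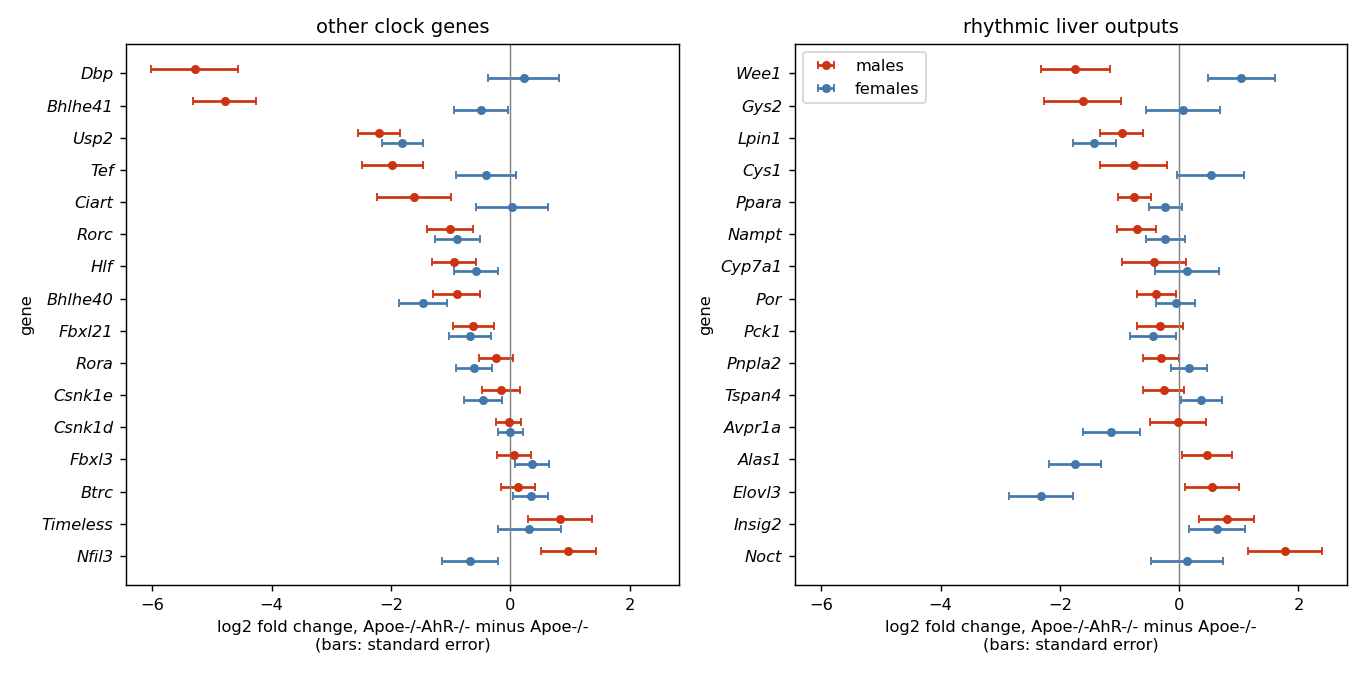
Log2 fold change, Ahr-null minus control, of 16 other clock genes (left) and 16 rhythmic liver genes (right) in males (red) and females (blue), with the standard error of the edgeR fit. Dbp and Bhlhe41 lie at -5.29 and -4.79 in males and at 0.22 and -0.49 in females, while Usp2 lies at -2.20 and -1.81. The interaction of genotype and sex was called for 0 of the 16 other clock genes and 0.00733% of all genes.

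The genes whose profile over the 12 livers was most like that of a member were found by the root mean square difference of log2 CPM, each taken less its own mean, among 10599 named genes. Tef was nearest to Nr1d1, at 0.25 log2 units, where Nr1d1 itself varied by 1.04. After Tef came Tns2 (0.60), LOC101055758 (0.62) and Klhdc7a (0.63). Fam222a (0.35), Slc3a1 (0.44), Slc41a2 (0.46) and Dtx4 (0.46) were nearest to Arntl, which varied by 0.90. Dtx4, for example, had 4.55 to 7.84 CPM in control males, 14.6 to 17.9 CPM in Ahr-null males and 4.58 to 7.26 CPM over the 6 females. Per3 varied most, by 1.69, and its nearest genes were farther off, namely Inmt (0.95), Tef (0.95), Dbp (0.98) and Cyp46a1 (1.04).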

How the data were processed

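RNA-seq counts of 12 livers were analysed. The authors deposited whole-number counts per gene and variance-stabilised values close to log2. The submitters' processing notes name STAR 2.7.8, DESeq2 1.28.1, Trim Galore 0.6.5, FastQC 0.11.8 and the build GRCm38. The sources used here do not give the counter, strand setting or annotation.

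The quasi-likelihood test of edgeR 4.0.16 (R 4.3.3) was run on the counts after filterByExpr by the 4 groups, TMM, with a robust fit of a mean per group over all 12 libraries (8 residual degrees of freedom). The 6 contrasts were two-sided, with Benjamini-Hochberg adjustment over 13641 genes and a threshold of 0.05. Log2 CPM used a prior count of 2. limma 3.58.1 and DESeq2 1.42.0 served as alternatives. The procedure was tested on simulated data. Replicate pairs differed by a chi-square of 23.9 to 267 per degree of freedom, so none was counted as 1 library. At most 0.102 CPM corresponds to 1 count, and depth precision covers counting error only.

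Gene models are GENCODE M21 on GRCm38. The 10 members, the lists and the rule for named genes (all members, genes called in a genotype contrast or with the 4 smallest p in males per list, and the 4 nearest profiles to Arntl, Nr1d1 and Per3) were chosen with earlier results of these data known. The lists of other clock genes, rhythmic liver genes and cell type markers carry no test of their own. Replicate numbers follow accession order and pair nothing.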

Additional observations from a re-analysis of the deposited data

How the results depend on the processing

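No paired analysis was possible because the replicate numbers follow accession order and the labels give none. Values in this paragraph are counts of the 10 members passing, unless said to be over all genes. In males, where edgeR called 0, the count was 1 with library size alone, 1 with no filter on low counts, 4 with DESeq2, 1 with limma on the authors' values, 2 when the male groups were fitted alone, and 4 without the 2 libraries with neural transcripts, a setting chosen after seeing the data. Averaged over the sexes, where 1 passed, these counts were 3 with library size alone, 3 with DESeq2, 2 with limma on the authors' values and 2 without the 2 libraries. The interaction had 1 with DESeq2 against 0. Between the sexes in Ahr-null livers, 2 passed, against 4 with DESeq2, 0 in the fit of those groups alone and 4 without the 2 libraries. Leaving out each library gave 0 to 4 in males (of the Ahr-null females, omitting replicate 1 gave 4 and omitting replicate 3 gave 1; every other omission gave 0), 0 to 2 in the average, and 1 to 4 between the sexes of Ahr-null livers. In females and between the sexes of controls no setting called a member. Npas2 did not pass the filter when only the females or only the controls were fitted, and the average and the interaction were not run on part of the groups. Over all genes the count in males was 5, and it was 86 with DESeq2, 57 without Ahr-null female replicate 1 and 27 without the 2 libraries. It was 12 with library size alone, 6 with no filter, 9 with the authors' values and 25 with the male groups alone. In the average 144 of all genes passed, against 1053 with library size alone and 584 with DESeq2. There 154 passed with the authors' values and 432 without the 2 libraries. The interaction had 1 of all genes, and 23 with DESeq2. Between the sexes in Ahr-null livers it was 38, against 210 with DESeq2, 0 in those groups alone and 110 without the 2 libraries. The cause of these moves was not tested.

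Signs changed for small differences, none of which passed. With library size alone, which moved the median of all genes from 0.0 to 0.47 in males and from 0.06 to 0.58 in females, the female values were 0.39 for Clock, 0.31 for Nr1d2, 0.32 for Per2 and 0.41 for Cry2, and the averages 0.20 for Per1 and 0.05 for Cry2. With limma-voom they were -0.01 for Per1 in males, -0.10 for Nr1d1 and -0.10 for Per3 in females and -0.02 for the average of Clock. With the authors' values they were -0.01, -0.06, -0.07 and 0.0, in that order, and with DESeq2 the female value of Per3 was 0.0. Without the 2 libraries they were -0.09 for Per1 in males, 0.05 for Nr1d2, 0.27 for Per2 and 0.06 for Cry2 in females, -0.15 for the average of Clock and 0.0 for the interaction of Per1. Leaving out each library moved Per1 in males from -0.17 to 0.28, and in females Clock from -0.63 to 0.02, Nr1d1 from -0.35 to 0.57, Nr1d2 from -0.54 to 0.05, Per2 from -0.63 to 0.27, Per3 from -0.59 to 0.36 and Cry2 from -0.43 to 0.09. The average of Clock ran from -0.20 to 0.12, and the sex difference in controls from -0.01 to 1.11 for Npas2, -0.09 to 0.23 for Nr1d2, -0.16 to 0.51 for Per1, -0.30 to 0.41 for Per2 and -0.10 to 0.20 for Cry2. In males the 8 members that did not overlap kept their sign in all 23 alternatives. That is no separate support. Where groups do not overlap, leaving out a library could hardly change the sign, and the other settings reused the same livers.

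In females r with Arntl under library size alone was 0.11 for Nr1d1, 0.26 for Nr1d2, 0.28 for Per1 and 0.47 for Cry2. Leaving out each liver gave -0.32 to 0.76 for Clock, -0.01 to 0.73 for Npas2, -0.67 to 0.34 for Nr1d1, -0.69 to 0.35 for Nr1d2, -0.70 to 0.51 for Per1, -0.80 to 0.52 for Per2, -0.71 to -0.35 for Per3, -0.81 to 0.41 for Cry1 and -0.62 to -0.23 for Cry2. With mitochondrially encoded genes left out of the total, the mean levels per length over 12 livers were 33.0 for Nr1d1, 12.5 for Per1, 10.4 for Nr1d2, 7.69 for Per2, 4.85 for Per3, 4.02 for Clock and 3.85 for Cry2, against 15.1, 6.16, 4.84, 3.52, 2.10, 2.02 and 1.83. Depth limits Npas2 and Cry1 most.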
